A study of Anser anser with 16 samples.

Results

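The genes described here move thyroid hormone into cells, bind it and activate it. They are 5 genes: SLC16A10, CRYM and DIO1 among the 19448 genes of the authors' table with ENSACDG gene identifiers, and the assembled genes matched to the protein entries IOD2 and TTHY among the 120847 genes of the authors' de novo assembly quantified with kallisto. IOD2 is deiodinase 2, written DIO2 below, and TTHY is transthyretin, written TTR. The rule that picks them goes by name, but the 5 genes were chosen with earlier results of these data known. The study sequenced pituitary and hypothalamus RNA of 8 male White Kołuda geese at day 108, 4 with a high growth rate (birds 49, 50, 52 and 54) and 4 with a low growth rate (birds 33, 37, 38 and 40). The birds were placed at random in 4 pens when 1 day old, had free range after an indoor start and were fattened on oats. Each bird gave a library of each tissue, so each of the 4 groups held 4 libraries, with the basis for calling a bird high or low not given in the sources used here.

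Thyroxine leaves the thyroid largely as a prohormone. Thyrotropin-releasing hormone of the hypothalamus stimulates thyrotropin in the pituitary, thyrotropin stimulates the thyroid, and thyroid hormone feeds back on both tissues. The hormone crosses the cell membrane through transporters such as the one encoded by SLC16A10. Inside the cell DIO2 turns thyroxine into the active triiodothyronine, DIO3 inactivates both hormones, and DIO1 can do either. In Japanese quail, long days raise DIO2 and lower DIO3 in the mediobasal hypothalamus, a switch that precedes gonadal growth.

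SLC16A10 (ENSACDG00005004420) lay on scaffold KZ155979.1 from 1496031 to 1564134, CRYM (ENSACDG00005007180) on KZ155843.1 from 8753892 to 8762907, and DIO1 (ENSACDG00005017476) on KZ155863.1 from 5668074 to 5672283, in the authors' tables. They refer to an assembly not given in the sources used here. All 3 were annotated as protein-coding, and no other gene of the table overlapped any of them. The assembled gene for DIO2 (DN102516_c0_g1) matched the chicken type II iodothyronine deiodinase at 96.1% identity over 279 residues, and the one for TTR (DN83368_c0_g1) matched chicken transthyretin at 94% identity over 150 residues, in the authors' deposited table. No lengths were used, so levels can be compared between libraries but not between genes.

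Values are given as CPM, a gene's count relative to the total of its library, scaled with the trimmed mean of M values (TMM) over all 16 libraries. For DIO2, TTR and DIO3 they rest on estimated counts and are called estimated CPM. Totals ran from 8543585 to 18068056 counts per library in the table with ENSACDG identifiers and from 15372047 to 35955761 estimated counts in the kallisto table. The tissue labels held against marker genes: 8 pituitary hormone-cell genes summed to 106569 to 156387 CPM in the pituitaries and 504 to 740.4 CPM in the hypothalami, and 9 neuronal genes summed to 710 to 946 CPM in the pituitaries and 4315 to 5363 CPM in the hypothalami. The pituitaries of birds 38, 40 and 50 stood apart from the other 5. In 734 of 13471 genes (5.45%) these 3 libraries lay above the other 5, and in 426 (3.16%) below them. The 3 were picked after seeing the data, and no other split into 3 and 5 was counted beside it. Several results that use the pituitaries are also given without these 3.

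Between the tissues 4 of the 5 genes were called. SLC16A10 and DIO2 were higher in the pituitary, CRYM and TTR were higher in the hypothalamus, and DIO1 averaged under 3 CPM in both with no difference called. A call between tissues needed a 2-fold difference or more and an adjusted p under 0.05 in edgeR's quasi-likelihood test, a model of counts fitted over all genes of the table. By that rule 34.4% of 14394 genes were called in the table with ENSACDG identifiers (14.9% higher in the pituitary, 19.5% higher in the hypothalamus), and 27.5% of 110655 in the kallisto table (12.7% and 14.7%). Tissues without overlap were found in 24.6% of genes with the pituitary higher and 24.6% with it lower in the first table, and in 7.87% and 11.3% in the kallisto table. In bulk tissue, fewer cells of a type and less RNA per cell cannot be told apart. No member passed the test between growth rates in either tissue.

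**Figure D1:**
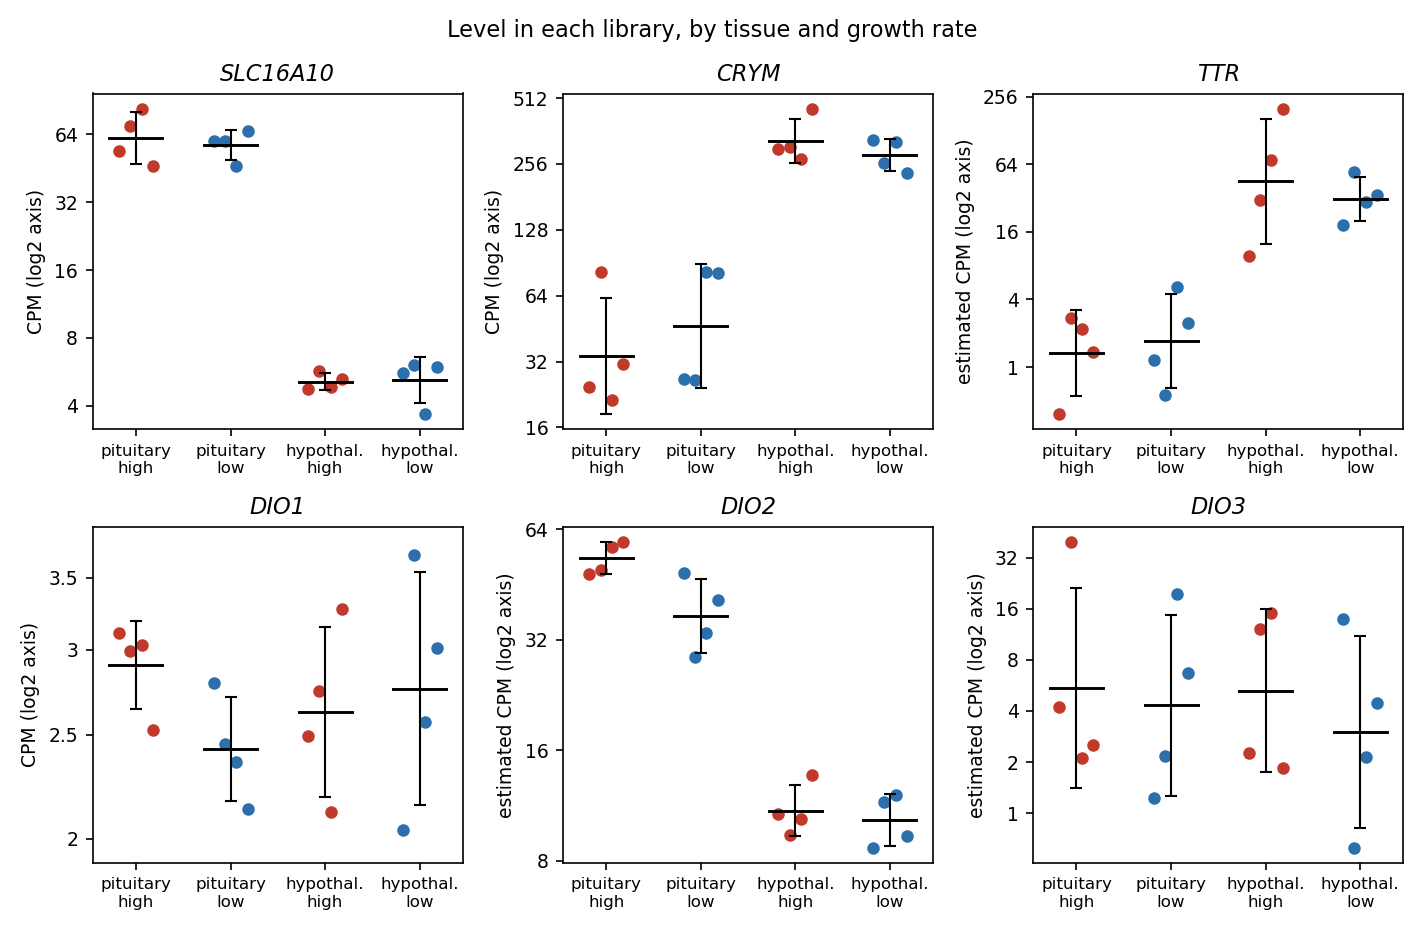
Level of the 5 members and of DIO3 in each library (points), as CPM or estimated CPM on a log2 axis, for high (red) and low (blue) growth rate in the pituitary (left) and hypothalamus (right). Bars are means ± SD of log2 values, n = 4 birds per group. SLC16A10 and DIO2 separate the tissues upwards, CRYM and TTR downwards, and the growth groups of every gene overlap.

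SLC16A10 encodes a membrane transporter of aromatic amino acids that also carries triiodothyronine and thyroxine. In the pituitary it stood at 54.1, 69.6, 83.0 and 46.1 CPM in high-growth birds 49, 50, 52 and 54, against 59.9, 59.8, 46.2 and 66.2 CPM in low-growth birds 33, 37, 38 and 40. In the hypothalamus it stood at 4.76, 5.69, 4.83 and 5.26 CPM in the high-growth birds, against 5.60, 6.04, 3.68 and 5.94 CPM in the low-growth birds. The lowest pituitary was thus far above the highest hypothalamus, while the growth groups overlapped in both tissues. SLC16A10 averaged 60.6 ± 12.4 CPM in the pituitary and 5.23 ± 0.78 CPM in the hypothalamus (SD, n = 8 each). The difference was 3.53 ± 0.14 on the log2 scale (SE), or 11.6-fold, with an adjusted p of 2.25e-12 in edgeR. It was higher in the pituitary in 8 of 8 birds, by 8.75-fold in bird 54 to 17.2-fold in bird 52. Among the 14394 genes tested, 1.57% had a larger difference in that direction.

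CRYM encodes mu-crystallin, a cytosolic protein that binds triiodothyronine with NADPH. In the pituitary it stood at 24.4, 82.4, 21.3 and 31.1 CPM in high-growth birds 49, 50, 52 and 54, against 26.5, 26.3, 82.5 and 81.4 CPM in low-growth birds 33, 37, 38 and 40. In the hypothalamus it stood at 301.0, 306, 270.0 and 457 CPM in the high-growth birds, against 328, 257, 321 and 234 CPM in the low-growth birds. The pituitaries of birds 38, 40 and 50 lay between 81.4 and 82.5 CPM and the other 5 between 21.3 and 31.1 CPM, with nothing between, and all were below every hypothalamus. CRYM averaged 47.0 ± 29.2 CPM in the pituitary and 309 ± 68.1 CPM in the hypothalamus (SD, n = 8 each). The difference was -2.73 ± 0.32 on the log2 scale, with an adjusted p of 8.64e-07 in edgeR, and CRYM was lower in the pituitary in 8 of 8 birds. Without the pituitaries of birds 38, 40 and 50, a choice made after seeing the data, it was -3.57 ± 0.17. The hypothalamus exceeded the pituitary by 2.87-fold to 3.89-fold within birds 38, 40 and 50, and by 9.77-fold to 14.7-fold within the other 5.

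Other genes moved with CRYM over the 8 pituitaries, and their part in its level was not tested. In birds 38, 40 and 50 the pituitary level of AGRP, an appetite peptide of arcuate neurons, was 30.1, 56.4 and 27.1 CPM, against 0.77 to 3.03 CPM in the other 5. VIM, the intermediate filament of tanycytes and pituicytes, stood at 1467, 1340.0 and 1533 CPM, against 239 to 733 CPM in the other 5. MBP, a myelin protein, stood at 97.4, 96.1 and 133 CPM, against 16.6 to 40.5 CPM. Of the listed marker genes, these 3 pituitaries were above the other 5 in 2 of 8 astrocyte genes (GFAP and SLC6A11), 2 of 6 blood genes (ALAS2 and HBAD), and VIM and COL25A1, which are 2 of 6 tanycyte and ependyma genes and also 2 of 3 pituicyte genes. RSPH1, of the tanycyte and ependyma list, was below the other 5 in them, at 111 to 117 CPM against 129 to 146 CPM. The 6 tanycyte and ependyma genes summed to 1755, 1631 and 1798 CPM in birds 38, 40 and 50 and to 523 to 1064 CPM in the other 5, but most of that sum is VIM. Without VIM the other 5 genes summed to 287, 291 and 265 CPM, within or below the 281 to 331 CPM of the other pituitaries. The astrocyte genes of the first table summed to 606, 679 and 799.7 CPM, against 496 to 597 CPM. Without ALDOC, the most abundant, they summed to 132, 87.2 and 153 CPM, against 42.5 to 83.6 CPM. The 5 blood genes of the kallisto table summed to 13869, 7733 and 10833 estimated CPM, against 4283 to 6815 estimated CPM. Without HBA1 the other 4 summed to 3291, 4480 and 3833 estimated CPM, against 2884 to 3837 estimated CPM. The 2 skeletal muscle genes of the first table summed to 206, 53.7 and 929 CPM, against 28.3 to 106 CPM. These 3 pituitaries were above the other 5 in 0 of 10 neuronal genes and 0 of 11 hormone-cell genes. They were above in 1 of 9 genes listed for folliculostellate cells of the pituitary (S100B) and 1 of 2 arcuate peptide genes (AGRP). The same held for 0 of 7 choroid plexus genes, 0 of 6 pars tuberalis and thyrotroph genes and 0 of 4 skeletal muscle genes. Across the library-to-library spread within the pituitary, the coefficient of variation of CRYM was 62.1%, where the 5189 genes within 2-fold of its level had a median of 13.4% and 0.983% of them had a larger value.

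**Figure D2:**
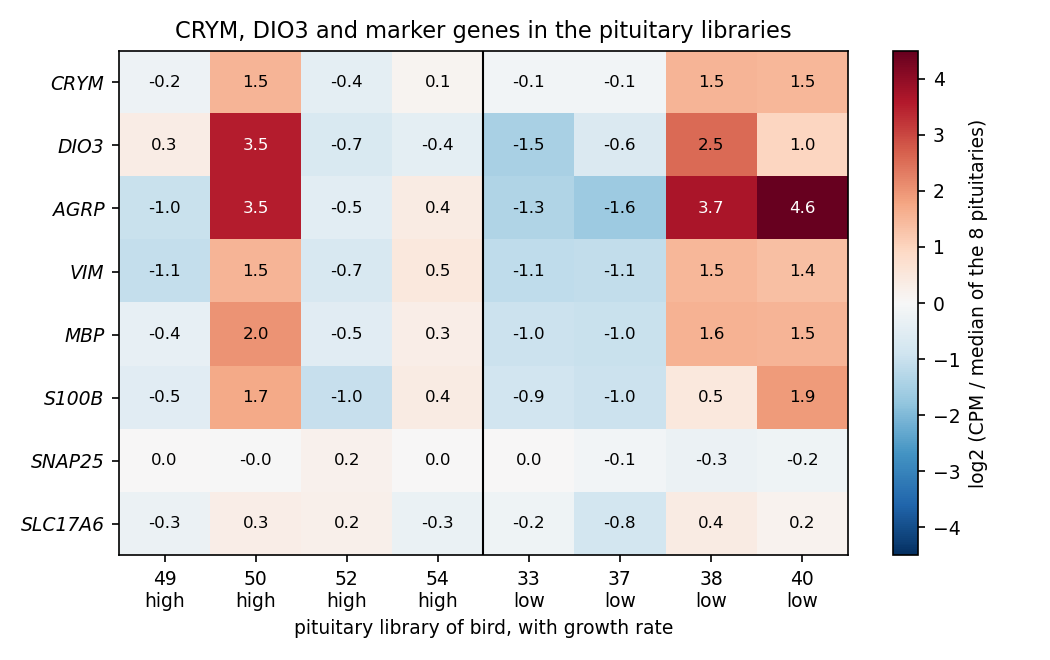
Level of CRYM, DIO3 and 6 marker genes in the 8 pituitary libraries, each as the log2 ratio of its CPM (estimated CPM for DIO3) to the median of the 8, with high-growth birds left of the line and low-growth birds right of it. Birds 50, 38 and 40 are above the other 5 in CRYM, DIO3, AGRP, VIM, MBP and S100B. The 6 genes beside CRYM and DIO3 are a selection. S100B is 1 of 9 folliculostellate genes measured and the only 1 of them above, from 7.31 CPM against at most 6.82 CPM. AGRP is 1 of 2 arcuate peptide genes measured, and MBP comes from the list of target genes. In the neuronal gene SNAP25 they stand at 67.5 to 80.7 CPM, against 73.8 to 92.7 CPM in the other 5, and in SLC17A6 at 5.04 to 5.86 CPM, against 2.53 to 5.26 CPM.

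TTR encodes transthyretin, which carries thyroid hormone in blood and in cerebrospinal fluid and is made in the choroid plexus and the liver. In the pituitary it stood at 0.38, 2.76, 2.19 and 1.37 estimated CPM in high-growth birds 49, 50, 52 and 54, against 1.16, 0.56, 5.20 and 2.46 estimated CPM in low-growth birds 33, 37, 38 and 40. These rest on 9 to 138 estimated counts, and birds 38, 50 and 40 held the highest values here too. In the hypothalamus it stood at 9.80, 30.5, 69.5 and 199.9 estimated CPM in the high-growth birds, against 18.4, 55.0, 29.4 and 33.8 estimated CPM in the low-growth birds. Every hypothalamus was above every pituitary, and the hypothalamus of bird 54 was far above the rest. TTR averaged 2.01 ± 1.55 estimated CPM in the pituitary and 55.8 ± 61.3 estimated CPM in the hypothalamus (SD, n = 8 each). The difference was -4.69 ± 0.61 on the log2 scale, with an adjusted p of 1.05e-05 in edgeR, and it was lower in the pituitary in 8 of 8 birds. Without the pituitaries of birds 38, 40 and 50 it was -5.59 ± 0.80.

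The spread of TTR between hypothalami was among the widest of its level. Its coefficient of variation was 110% (109.8), where the 4306 assembled genes within 2-fold of its level had a median of 11.9% and 0.116% of them had a larger value. Of 11 further choroid plexus genes listed, 7 were measured, and the hypothalamus of bird 54 was the highest in 2 of them, SLC4A5 at 5.33 CPM and TRPM3 at 23.6 CPM. The choroid plexus genes CLIC6, KL and FOLR1 stood there at 0.90 CPM, 0.76 estimated CPM and 2.63 estimated CPM, within the range of the other hypothalami. The 4 choroid plexus genes of the table with ENSACDG identifiers summed to 263 CPM in that library, the lowest of the 8 hypothalami, whose highest was 439 CPM. Of that sum 233 CPM was ENPP2, and without it the other 3 summed to 29.9 CPM in bird 54, the highest of the 8, against 16.1 to 29.2 CPM in the rest. The 3 others in the kallisto table summed to 27.2 estimated CPM in it and to 20.03 to 29.9 estimated CPM over all 8. Other marker lists differed in that library too. The 9 neuronal genes of the table with ENSACDG identifiers summed to 4315 CPM in it, the lowest of the 8 hypothalami, whose highest was 5363 CPM. It was the highest in 1 of 10 neuronal genes (SLC17A6) and 2 of 6 tanycyte and ependyma genes (FOXJ1 and RSPH1). CRYM was highest in it as well, at 457 CPM. The part of these genes in its TTR level was not tested. Between the tissues, CLIC6, KL and FOLR1 ran opposite to TTR without overlap. In the pituitaries they stood at 6.37 to 13.88 CPM, 6.61 to 11.95 estimated CPM and 5.45 to 18.02 estimated CPM. In the hypothalami they stood at 0.53 to 1.84 CPM, 0.47 to 0.84 estimated CPM and 1.58 to 3.63 estimated CPM. TRPM3 was higher in the hypothalami, like TTR, at 12.36 to 23.6 CPM against 4.07 to 8.99 CPM. AQP1, ENPP2 and SLC4A5 overlapped between the tissues.

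DIO1 encodes the deiodinase best known from liver and kidney. In the pituitary it stood at 3.11, 2.99, 3.03 and 2.52 CPM in high-growth birds 49, 50, 52 and 54, against 2.79, 2.45, 2.36 and 2.13 CPM in low-growth birds 33, 37, 38 and 40. In the hypothalamus it stood at 2.49, 2.74, 2.12 and 3.27 CPM in the high-growth birds, against 2.04, 3.68, 2.57 and 3.01 CPM in the low-growth birds. In the table with ENSACDG identifiers the 4 groups overlapped throughout, and each value rests on 20 to 53 counts. DIO1 averaged 2.67 ± 0.36 CPM in the pituitary and 2.74 ± 0.56 CPM in the hypothalamus (SD, n = 8 each). The difference was -0.04 ± 0.15 on the log2 scale (95% interval -0.34 to 0.25), with an adjusted p of 0.815 in edgeR, and 4 of 8 birds were higher in the pituitary. In the de novo kallisto table, by the assembled gene with the highest mean of the 3 matched to this protein, the difference was -0.45 ± 0.12, with an adjusted p of 0.00556 in edgeR and under 2-fold. Every hypothalamus was above every pituitary there, at 4.63 to 6.95 estimated CPM against 3.24 to 4.41 estimated CPM. Of all genes in that table, 11.3% were lower in the pituitary without overlap. The Salmon estimates did not overlap either, at 1.80 to 2.74 estimated CPM against 1.20 to 1.69 estimated CPM.

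DIO2 makes the active hormone from thyroxine inside the cell, and was called higher in the pituitary. In the pituitary it stood at 48.3, 49.6, 57.3 and 58.9 estimated CPM in high-growth birds 49, 50, 52 and 54, against 48.6, 28.7, 33.4 and 41.2 estimated CPM in low-growth birds 33, 37, 38 and 40. In the hypothalamus it stood at 10.7, 9.43, 10.4 and 13.7 estimated CPM in the high-growth birds, against 8.70, 11.6, 12.1 and 9.38 estimated CPM in the low-growth birds. Every pituitary was above every hypothalamus. DIO2 averaged 45.7 ± 10.7 estimated CPM in the pituitary and 10.8 ± 1.67 estimated CPM in the hypothalamus (SD, n = 8 each). The difference was 2.07 ± 0.12 on the log2 scale, or 4.19-fold, with an adjusted p of 8.47e-10 in edgeR. It was higher in the pituitary in 8 of 8 birds, by 2.47-fold in bird 37 to 5.59-fold in bird 33. In the Salmon estimates of the same assembly the difference was 2.00 ± 0.13, and without the pituitaries of birds 38, 40 and 50 it was 2.10 ± 0.14.

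DIO3, the inactivating deiodinase (DN108977_c0_g1, 95.3% identity to the chicken entry over 258 residues, in the authors' deposited table), varied widely between birds in both tissues. In the pituitary it stood at 4.24, 39.4, 2.11 and 2.52 estimated CPM in high-growth birds 49, 50, 52 and 54, against 1.23, 2.17, 19.6 and 6.68 estimated CPM in low-growth birds 33, 37, 38 and 40. In the hypothalamus it stood at 2.26, 12.2, 15.2 and 1.83 estimated CPM in the high-growth birds, against 13.99, 0.63, 2.14 and 4.43 estimated CPM in the low-growth birds. The pituitaries of birds 50, 38 and 40 were again the highest, and the hypothalami of birds 52, 33 and 50 stood above the other 5. DIO3 averaged 9.75 ± 13.4 estimated CPM in the pituitary and 6.58 ± 6.11 estimated CPM in the hypothalamus (SD, n = 8 each), a difference of 0.56 ± 0.76 on the log2 scale with an adjusted p of 0.617 in edgeR. Without the pituitaries of birds 38, 40 and 50 the difference was -1.52 ± 0.70, with an adjusted p of 0.119 in edgeR, and it was -0.34 without bird 50 and -0.15 without bird 38. Its coefficient of variation was 138% in the pituitary and 92.8% in the hypothalamus, and 0.331% and 0.383% of assembled genes within 2-fold of its level had a larger one.

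Within a library, the level of DIO2 was 1.26 to 39.4 times that of DIO3 in the pituitary (median 12.3) and 0.62 to 18.5 times in the hypothalamus (median 3.44). These ratios compare libraries only, since the genes differ in length. The lowest ratios in the pituitary were those of birds 50, 38 and 40, at 1.26, 1.70 and 6.17, and the lowest in the hypothalamus those of birds 33, 52 and 50, at 0.62, 0.69 and 0.78. The tissues overlapped.

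Growth rate was compared within each tissue, at an adjusted p under 0.05 in edgeR. No gene passed in either tissue, 0 of 13471 and 0 of 13695 in the table with ENSACDG identifiers (0%) and 0 of 92645 and 0 of 88359 in the kallisto table (0%), so no member did. At an unadjusted p under 0.05 there were 266 and 456 genes in the first table and 1959 and 2249 in the second, in the pituitary and the hypothalamus. DESeq2's Wald test called 5 and 2 genes in the first table and 262 and 229 in the second, none of them a member. Adjusted p-values of the members ran from 0.998 to 1.00 in edgeR. In DESeq2's Wald test DIO2 in the pituitary had an adjusted p of 0.359.

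DIO2 in the pituitary had the smallest unadjusted p of the members, 0.0143 in edgeR. It averaged 53.5 ± 5.35 estimated CPM in high-growth and 37.95 ± 8.77 estimated CPM in low-growth pituitaries (SD, n = 4 each). The difference was 0.50 ± 0.17 on the log2 scale (95% interval 0.18 to 0.83), with an adjusted p of 1.00 in edgeR, and 2.11% of the genes tested there had an unadjusted p under 0.05. The groups overlapped by a narrow margin, since low-growth bird 33 was just above high-growth bird 49, and 2.21% of genes had groups without overlap. Leaving out each bird in turn gave 0.39 to 0.64. Without the pituitaries of birds 38, 40 and 50 the difference was 0.51 ± 0.25. In the hypothalamus DIO2 averaged 11.1 ± 1.86 estimated CPM in high-growth and 10.4 ± 1.66 estimated CPM in low-growth birds (SD, n = 4 each), a difference of 0.10 ± 0.16. The pituitary difference exceeded the hypothalamus difference by 0.41 ± 0.24 on the log2 scale, with an adjusted p of 1.00 in edgeR.

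TTR in the hypothalamus averaged 77.4 ± 85.3 estimated CPM in high-growth and 34.2 ± 15.4 estimated CPM in low-growth birds (SD, n = 4 each). The groups overlapped, with high-growth bird 49 the lowest and high-growth bird 54 the highest of the 8. The difference was 1.20 ± 0.77 on the log2 scale (95% interval -0.32 to 2.72), with an adjusted p of 1.00 in edgeR and also in DESeq2's Wald test. Without bird 54 it was 0.12. In the authors' deposited kallisto table of their own comparison, turned to high minus low, TTR in the hypothalamus had a difference of 1.18 and an adjusted p of 2.73e-09. The authors called 51 genes in that comparison and 62 in the hypothalamus with ENSACDG identifiers, where edgeR called 0 in each here. In their tables the adjusted p of every other member, in either tissue, was 0.871 or more.

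**Figure D3:**
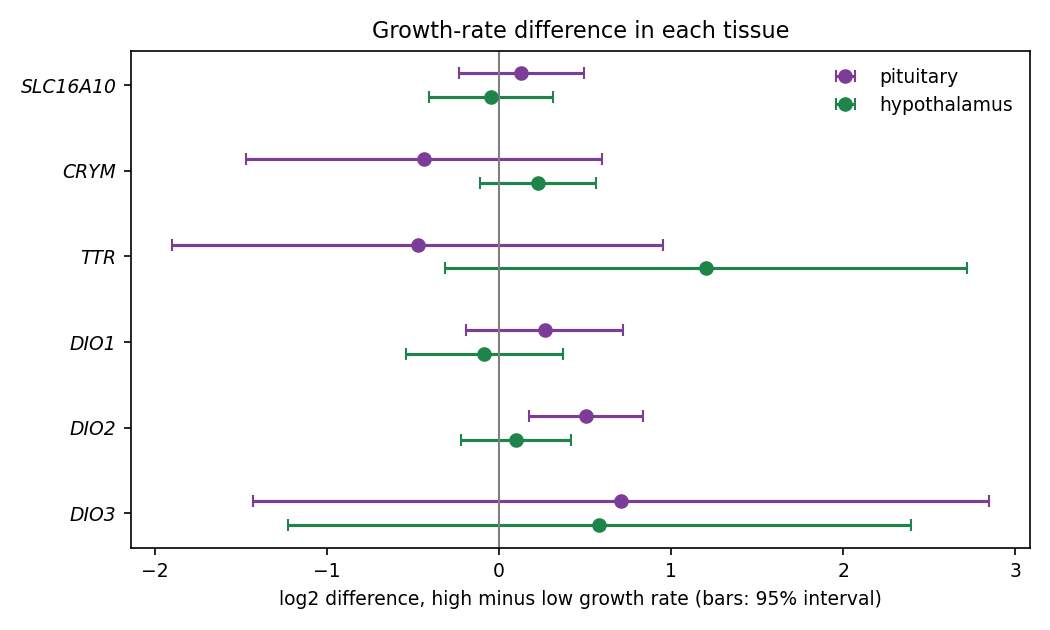
Log2 difference between high and low growth rate in the pituitary (purple) and the hypothalamus (green) for the 5 members and DIO3, with bars of the 95% interval, n = 4 birds per group. Every bar but that of DIO2 in the pituitary crosses 0, and no gene had an adjusted p under 0.998 in edgeR.

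For the other members the 95% interval of the growth difference held 0. SLC16A10 averaged 63.2 ± 16.4 CPM in high-growth and 58.0 ± 8.41 CPM in low-growth pituitaries (SD, n = 4 each), a log2 difference of 0.13 ± 0.19, and of 0.040 ± 0.24 without the pituitaries of birds 38, 40 and 50. It differed by -0.05 ± 0.18 in the hypothalamus. CRYM averaged 39.8 ± 28.7 CPM in high-growth and 54.2 ± 32.1 CPM in low-growth pituitaries (SD, n = 4 each). That log2 difference was -0.44 ± 0.53, and -0.04 ± 0.21 without the pituitaries of birds 38, 40 and 50, of which 2 were low-growth and 1 high-growth. In the hypothalamus CRYM averaged 334 ± 84.1 CPM in high-growth and 285 ± 46.7 CPM in low-growth birds (SD, n = 4 each), a log2 difference of 0.23 ± 0.17. Without bird 54, the highest at 457 CPM, that difference was 0.042. DIO1 differed by 0.27 ± 0.23 in the pituitary, and by 0.15 ± 0.36 without those 3, and by -0.09 ± 0.23 in the hypothalamus. TTR in the pituitary differed by -0.47 ± 0.73, and by 0.62 ± 0.89, the opposite sign, without those 3. The tissue by growth interaction had an adjusted p of 1.00 for each of the 5 members in edgeR, and 0% of genes in the first table and 0.000904% in the kallisto table, a single assembled gene, passed it. For CRYM the interaction was -0.67 ± 0.60, and -0.28 ± 0.29 without the pituitaries of birds 38, 40 and 50. For TTR it was -1.66 ± 1.11, and -0.57 ± 1.37 without those 3.

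Of 71 other thyroid hormone genes listed by role, 57 were tested, 47 in the table with ENSACDG identifiers and 10 in the kallisto table. The remaining 14, among them TRH, TSHB and TSHR, were not analysed here. Between the tissues 15 of the 57 were called higher in the pituitary and 10 lower, and 32 were not called. Their median log2 difference was 0.28, against 0.06 and 0.14 over all genes of the 2 tables. Over all genes tested, 14.9% were called higher in the pituitary and 19.5% lower in the table with ENSACDG identifiers. In the kallisto table the shares were 12.7% and 14.7%. The counts by role below stand beside the same shares. By growth rate 0 of 57 were called in either tissue, with log2 medians of -0.0040 in the pituitary and -0.0062 in the hypothalamus.

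Of 9 other transport genes, 2 were called higher in the pituitary, 3 lower and 4 not. SLCO1C1, which carries thyroxine into the brain of rodents, averaged 4.42 ± 0.81 estimated CPM in the pituitary and 1.79 ± 0.49 estimated CPM in the hypothalamus, a log2 difference of 1.30 ± 0.18. BSG, a chaperone of some monocarboxylate transporters, was higher by 1.12 ± 0.07. Lower in the pituitary were SLC7A5, a large neutral amino acid transporter that also carries thyroid hormone, by -1.78 ± 0.11, SLCO2B1, an organic anion transporter, by -2.15 ± 0.26, and SLC10A4, a transporter of synaptic vesicles, by -2.58 ± 0.25. Adjusted p-values of these 5 ran from 3.36e-10 to 1.9e-05 in edgeR.

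All 3 other binding proteins tested were called higher in the pituitary, opposite to CRYM and TTR. ALDH1A1, which binds thyroid hormone and makes retinoic acid, averaged 599 ± 215 CPM in the pituitary and 4.09 ± 1.75 CPM in the hypothalamus, a log2 difference of 7.16 ± 0.22. P4HB and PDIA3, protein disulphide isomerases of the endoplasmic reticulum, were higher by 1.56 ± 0.09 and 1.27 ± 0.11. In the growth comparison ALDH1A1 averaged 437 ± 48.8 CPM in high-growth and 761 ± 189 CPM in low-growth pituitaries (SD, n = 4 each). That difference was -0.79 ± 0.18, with an adjusted p of 1.00 in edgeR and 0.0397 in DESeq2's Wald test.

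Among 13 genes of deiodination and selenoprotein synthesis, 2 were called higher in the pituitary and 11 were not called. SECISBP2, which directs selenocysteine into the deiodinases, averaged 128 ± 12.2 CPM in the pituitary and 49.7 ± 2.71 CPM in the hypothalamus, a difference of 1.36 ± 0.06. PSTK, a kinase in the synthesis of selenocysteine, differed by 1.05 ± 0.09, and by 0.99 with RLE scaling, just under 2-fold, and 0.98 without bird 33. USP33 and USP20, which stabilise DIO2 in mammals by removing ubiquitin, differed by -0.50 ± 0.07 and -0.83 ± 0.10, and WSB1, part of a ubiquitin ligase of DIO2, by 0.39 ± 0.08, all under 2-fold.

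Of 15 receptor and cofactor genes, 2 were called higher in the pituitary and 13 were not called. These were the coactivator NCOA3, by 1.45 ± 0.08, and TRIP11, a Golgi protein first described as a partner of the receptor, by 1.13 ± 0.08. Without the pituitaries of birds 38, 40 and 50, 4 were called higher. The receptor genes THRA and THRB differed by -0.09 ± 0.11 and 0.96 ± 0.10, the second with an adjusted p of 1.41e-07 in edgeR but under 2-fold.

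In the thyrotropic axis 5 of 8 genes were called higher in the pituitary and 2 lower. The receptor for thyrotropin-releasing hormone, TRHR, was higher by 2.99 ± 0.20, and CGA, the common glycoprotein hormone subunit, by 10.41 ± 0.49. The transcription factors POU1F1 and GATA2, which act on the thyrotropin genes, were higher by 8.52 ± 0.18 and 3.78 ± 0.23, and EYA3 by 1.01 ± 0.10. TRHDE, the enzyme that degrades thyrotropin-releasing hormone, averaged 3.65 ± 1.35 CPM in the pituitary and 27.96 ± 3.03 CPM in the hypothalamus, a difference of -2.92 ± 0.20. TEF, a clock-related transcription factor, was lower in the pituitary by -1.09 ± 0.08.

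Of 9 genes known in mammals as targets of the hormone, 1 was called higher in the pituitary, 5 lower and 3 not. KLF9, a transcription factor induced by triiodothyronine, averaged 39.6 ± 13.6 estimated CPM in the pituitary and 5.64 ± 0.82 estimated CPM in the hypothalamus, a difference of 2.82 ± 0.20 with an adjusted p of 6.39e-09 in edgeR. The 5 lower ones are genes of neurons, glia or brain vessels and others: NRGN, a postsynaptic protein, by -4.82 ± 0.14, MBP by -5.48 ± 0.56, SLC2A1, the glucose transporter, by -2.11 ± 0.16, BCL6 by -1.56 ± 0.15 and RELN by -1.14 ± 0.16. Without the pituitaries of birds 38, 40 and 50, MBP differed by -6.81.

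**Figure D4:**
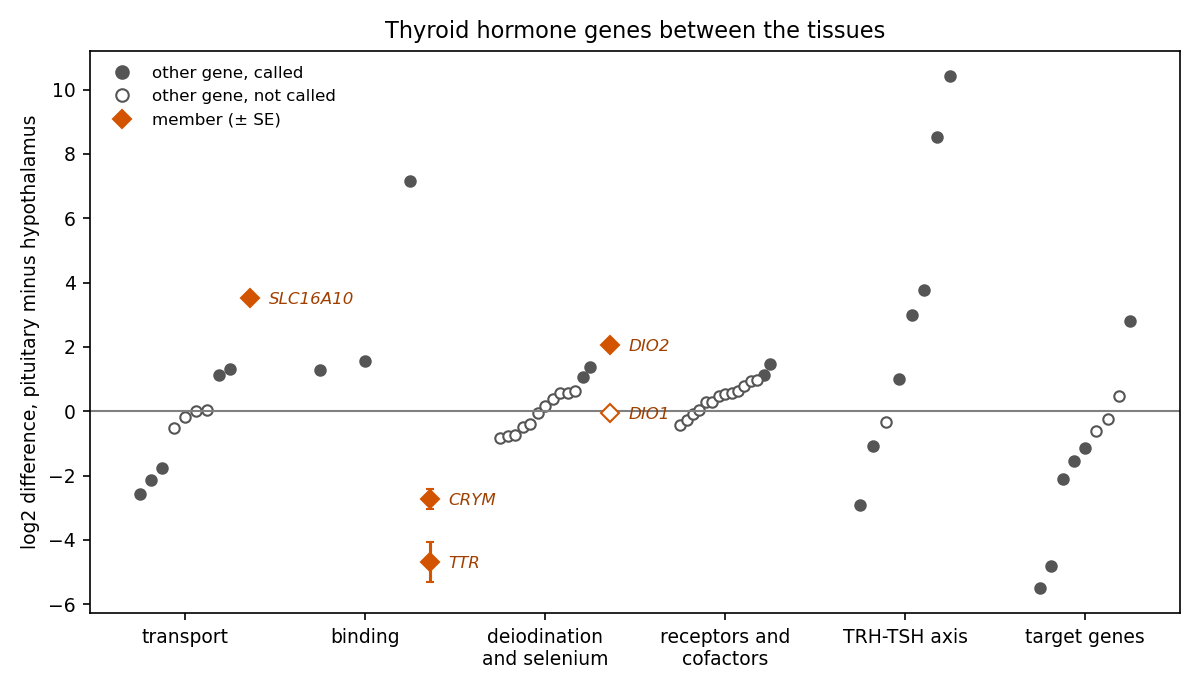
Log2 difference between pituitary and hypothalamus of 57 thyroid hormone genes by role (circles, filled where called at an adjusted p under 0.05 and at least 2-fold) and of the 5 members (orange diamonds with SE, open for DIO1, which was not called), n = 8 birds. SLC16A10 is above and CRYM and TTR are below every other measured gene of their roles.

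The named genes most like each member were found by Pearson's r of log2 CPM over the 8 libraries of the tissue where the member was higher, a description of libraries that share depth and dissection, among 9774 to 15996 named genes. For SLC16A10 in the pituitary they were NCAPH2, RAB3A and SRP72 (r of 0.928, 0.923 and 0.922). For CRYM in the hypothalamus they were RBBP7, DZANK1 and SPATA18 (0.960, 0.959 and 0.934), and for DIO1 there KIAA1328, PXN and TNFRSF6B (0.971, 0.935 and 0.935). For DIO2 in the pituitary they were KI26A, SIDT1 and PAK6 (0.929, 0.928 and 0.926), and for TTR in the hypothalamus RHOV, GPR52 and CTNA2 (0.950, 0.942 and 0.926). Names of the DIO2 and TTR lists other than symbols are protein entries. Without the library farthest from the median these values were 0.826 to 0.954. For each member 7 to 13 of the 9774 to 15996 genes searched had an r over 0.9. With 8 libraries and so many genes searched, that few can reach such an r by chance. Whether they exceed chance was not tested, so the named genes are no evidence of a shared control.

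No relation between a bird's 2 tissues passed a test. Over the 8 birds, Pearson's r between the tissues was 0.422 for SLC16A10 (exact permutation p of 0.307), -0.563 for DIO1 (0.147), -0.109 for DIO2 (0.793) and 0.228 for TTR (0.593), two-sided. Spearman's rho was 0.357 (exact permutation p of 0.389), -0.548 (0.171), -0.024 (0.977) and 0.143 (0.752). Adjusted over 5 relations, p was 0.735 or more for r and 0.835 or more for rho. Each r is of log2 CPM. The 2 birds farthest from the pituitary median differed by gene. Without them r was 0.897 for SLC16A10 (without birds 52 and 54) and -0.584 for DIO1 (without 40 and 49). It was 0.674 for DIO2 (without 37 and 38) and -0.270 for TTR (without 37 and 49), and these values were not tested. CRYM fell into separate clusters in the pituitary, so no r is given for it, though it is counted among the 5 relations.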

How the data were processed

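Gene tables of RNA libraries (TruSeq RNA v2, per the labels' protocols) were used as deposited. The authors' tables with ENSACDG and ENSABRG identifiers hold raw counts per gene, and the deposited de novo tables hold estimated counts from kallisto and Salmon, rounded here to whole numbers. The submitters' processing notes list kallisto, Salmon, STAR, RSEM, FastQC and DESeq2 without versions. The only genome build in those notes is Sscrofa11.1, a pig assembly. The roles of the tools, the goose assembly and the strand setting of the counting were not given in the sources used here. Each growth comparison also has, as deposited by the authors, a linear fold ratio (low over high, by its sign against the counts), its log2, p-values and the percent identity of protein matches. The log2 values were turned to high minus low.

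CPM were computed here with TMM scaling over all 16 libraries. Tests were edgeR 4.0.16 quasi-likelihood fits (filterByExpr, TMM within the libraries fitted), with Benjamini-Hochberg adjustment over all genes of a table. SE is the log2 difference divided by the square root of F, and 95% intervals are normal ones from it. Alternatives used DESeq2 1.42.0, limma voom 3.58.1, RLE scaling, no filter, the other tables, leaving out each bird, and a block. Scripts ran in R 4.3.3 and Python 3.11.15 and were tested on simulated data. Low counts limit the precision for DIO1 and for TTR in the pituitary.

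Each library is 1 tissue of 1 bird, so p-values cover the spread between these birds. The tissues share birds: deviations of a bird's 2 libraries from their group means correlated at 0.184 to 0.389 in the ENSACDG table and 0.093 to 0.209 in the kallisto table, and each was highest within its own bird. A block for the bird changed no call of a member.

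The 5 genes and all lists were chosen with earlier results of these data known. Pathway genes are named by a rule: up to 3 called genes per list and direction between tissues, up to 2 with the smallest p elsewhere. TRHR, EYA3, BCL6, RELN, THRA, THRB, USP33, USP20 and WSB1 were named after their values were seen. Where a protein entry had several assembled genes, the one with the highest mean was used. A further gene of the rule is not reported here, and no sequences were used.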

Additional observations from a re-analysis of the deposited data

Results flagged for a closer look

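Of 24 groups of 4 libraries checked, 2 held a library far from the other 3, where chance gives about 1 in 20. At that rate a flagged group or more among 24 is no surprise. CRYM stood at 82.4 CPM in the pituitary of high-growth bird 50, a gap of 0.84 of the group's range, past Dixon's 95% critical value for 4. DIO3 stood at 39.4 estimated CPM in the same library, a gap of 0.943 of the range. Both gaps were taken on CPM. On log2 values, the scale of the tests, each is a smaller part of the range and under that critical value. The pituitary of bird 50 is among the 3 with high AGRP, VIM and MBP, and the part of those genes in its CRYM and DIO3 levels was not tested.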

How the results depend on the processing

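Of 439 recomputed values of members and counts of calls, 403 kept their direction and their side of the threshold, 21 counts moved by over 1.5 times and 15 differences changed sign, all of them differences that had not been called. The tissue calls of SLC16A10 (3.44 to 3.60 leaving out each bird), CRYM (-3.07 to -2.59), DIO2 (1.958 to 2.15) and TTR (-5.11 to -4.11) held under every alternative run. DIO2 and TTR have 1 assembled gene each, so a sum over the assembled genes of an entry would leave them as they are. The entries of DIO1 and SLC16A10 have 3 and 2. For these the assembled gene with the highest mean was used, and no sum is given.

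DESeq2 called 5 and 262 genes by growth in the pituitary (ENSACDG and kallisto tables), 2 and 229 in the hypothalamus, and 1 and 164 for the interaction. With all 16 libraries in the fit, 1 and 2 genes were called in the pituitary and 2 of the kallisto table in the hypothalamus. The 1 interaction call of the kallisto table became 0 with voom, with the replicate block, without the pituitaries of birds 38, 40 and 50, and without any bird (0 to 0), and 49 in the Salmon table. The cause was not tested.

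Without the pituitaries of birds 38, 40 and 50, growth differences in the pituitary were 0.62 for TTR, -0.025 for SLC7A8, -0.041 for SLC7A5 and 0.12 for CGA, tissue differences were 0.0087 for DIO1 and -1.52 for DIO3, and the interaction of THRA was -0.083, each of the opposite sign to the full set. DIO1 by growth in the hypothalamus was 0.00052 in the ENSABRG table and 0.030 in the kallisto table. The interaction of DIO3 was -0.36 with voom and -0.45 with the replicate block.

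Leaving out each bird in turn, these changed sign. By growth in the pituitary SLC16A10 ran from -0.035 to 0.25, TTR from -0.83 to 0.29, DIO3 from -1.33 to 1.86, PDIA3 from -0.046 to 0.22 and CGA from -0.55 to 0.081. By growth in the hypothalamus SLC16A10 ran from -0.18 to 0.022, DIO1 from -0.20 to 0.060, DIO2 from -0.024 to 0.17, PDIA3 from -0.079 to 0.026 and GATA2 from -0.33 to 0.025. Between tissues DIO1 ran from -0.18 to 0.046 and DIO3 from -0.34 to 1.31. For the interaction SLC16A10 ran from -0.018 to 0.30, DIO3 from -1.64 to 1.56, ALDH1A1 from -0.44 to 0.084 and CGA from -0.39 to 1.13.

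The labels number birds 1 to 4 within each growth group, but these are different birds. Deviations of birds sharing a number correlated at -0.246 to 0.396 in the pituitary and -0.216 to 0.101 in the hypothalamus (ENSACDG table). With this number as a replicate block, DIO2 by growth in the pituitary was 0.53 ± 0.16 and TTR in the hypothalamus 0.52 ± 0.69, and 0 genes were called in either tissue. With the bird as a replicate block, 4971 and 26895 genes were called between tissues. Depth limits DIO1, which rests on 20 to 53 counts a library.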
